A study of Mus musculus with 14 samples.

Results

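miR-143 and miR-145 are a pair of miRNAs made from one transcript, and the data hold both arms of each hairpin, miR-143-3p, miR-143-5p, the 5p arm of miR-145 and its 3p arm. They were found by name, as 4 of the 900 mature miRNAs listed for whole epididymal tissue and 4 of the 677 listed for isolated epididymal epithelial cells, out of 999 distinct names in all. Whole tissue names the miR-145 arms miR-145a-5p and miR-145a-3p, and epithelial cells name them miR-145-5p and miR-145-3p. A near relative, miR-145b, had between 1 and 8 counts per whole tissue library and is not one of the 4.

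The pair is best known from smooth muscle, where serum response factor and its partner myocardin switch on the shared transcript and the miRNAs favour the contractile state of the cells over the growing one. Fibroblasts and pericytes also make them, and in organs such as the gut most of the signal lies in the wall around the epithelium rather than in the epithelium itself. The epididymal duct is wrapped in smooth muscle that is thin around the caput, where sperm enter, and thick around the cauda, where sperm are stored. In each hairpin one arm is usually kept as the guide strand that is loaded into Argonaute and the other is mostly degraded.

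All mice were male Swiss mice aged 8 weeks, with no genetic change and no treatment. Whole tissue was dissected into caput (3 libraries), corpus (2) and cauda (3), and epithelial cells were isolated from the same 3 regions (2 libraries each). Per the study's methods the vasculature was flushed with PBS, tissue of several mice was pooled for each replicate, and the epithelial cells were obtained by flushing out sperm, digesting with trypsin and collagenase, straining and a step in culture plates, in which fibroblasts and muscle cells were found stuck to the plastic and were left behind. The study reports high epithelial enrichment by androgen receptor staining. It detected cytokeratin 8, an epithelial marker, on blots of these cells, and no sperm marker by lectin staining or blotting. The total count ran from 1243398 to 2135501 per whole tissue library and from 89039 to 362867 per epithelial library, so that preparation, depth and any library batch cannot be told apart. The study calls the replicates biological in one place and technical in another, and speaks of 2 replicates run in triplicate where caput and cauda of whole tissue have 3 libraries here, so it is open which libraries come from separate pools of mice and the p-values measure only the spread between these libraries. The tables hold mature miRNAs only, so the label of smooth muscle could not be checked against the contractile genes of that tissue, and marker miRNAs of other cell types are given beside the results. These are bulk samples, in which fewer cells of a type and less RNA per cell cannot be told apart.

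On the mouse assembly GRCm38 the hairpins lie on the minus strand of chromosome 18, Mir143 at 61649196 to 61649258 and Mir145a at 61647825 to 61647894, with 1301 bases between them. Both lie inside the RefSeq long non-coding RNA Carmn at 61645878 to 61665538. The GENCODE model of Carmn, read on the same minus strand, has its 3′ end at 61649625, stops 366 bases upstream of Mir143 and so holds neither hairpin.

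miR-143-3p was among the most abundant miRNAs of the epididymis. The whole tissue libraries gave it 101786, 82901 and 96383 counts for caput, 106856 and 115472 for corpus, and 474741, 360135 and 418979 for cauda. As a share of all miRNA counts this was 4.51 to 5.85% for caput, where it ranked number 7, 8.30 to 8.59% for corpus, where it ranked number 5, and 24.7 to 26.8% for cauda, where it ranked number 1. The ranges of the 3 regions did not overlap, and in the cauda the next miRNA, miR-22-3p, held a mean of 12.6% against 26.1% for miR-143-3p. Counting error alone was small, with 95% Wilson intervals no wider than 0.543 percentage points in any library, and the spread between libraries was larger.

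In isolated epithelial cells miR-143-3p ranked number 1 in all 6 libraries. Its counts were 45045 and 57905 for caput (12.4 and 17.8% of counts), 25580 and 19489 for corpus (20.1 and 21.9%), and 85134 and 32077 for cauda (30.1 and 17.9%). The cauda libraries enclosed both corpus libraries and, at their lower end, lay close to the higher caput library. The second miRNA of each region, miR-148a-3p in caput and corpus and miR-26a-5p in the cauda, held a mean of 10.7, 8.96 and 7.26%.

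**Figure D1:**
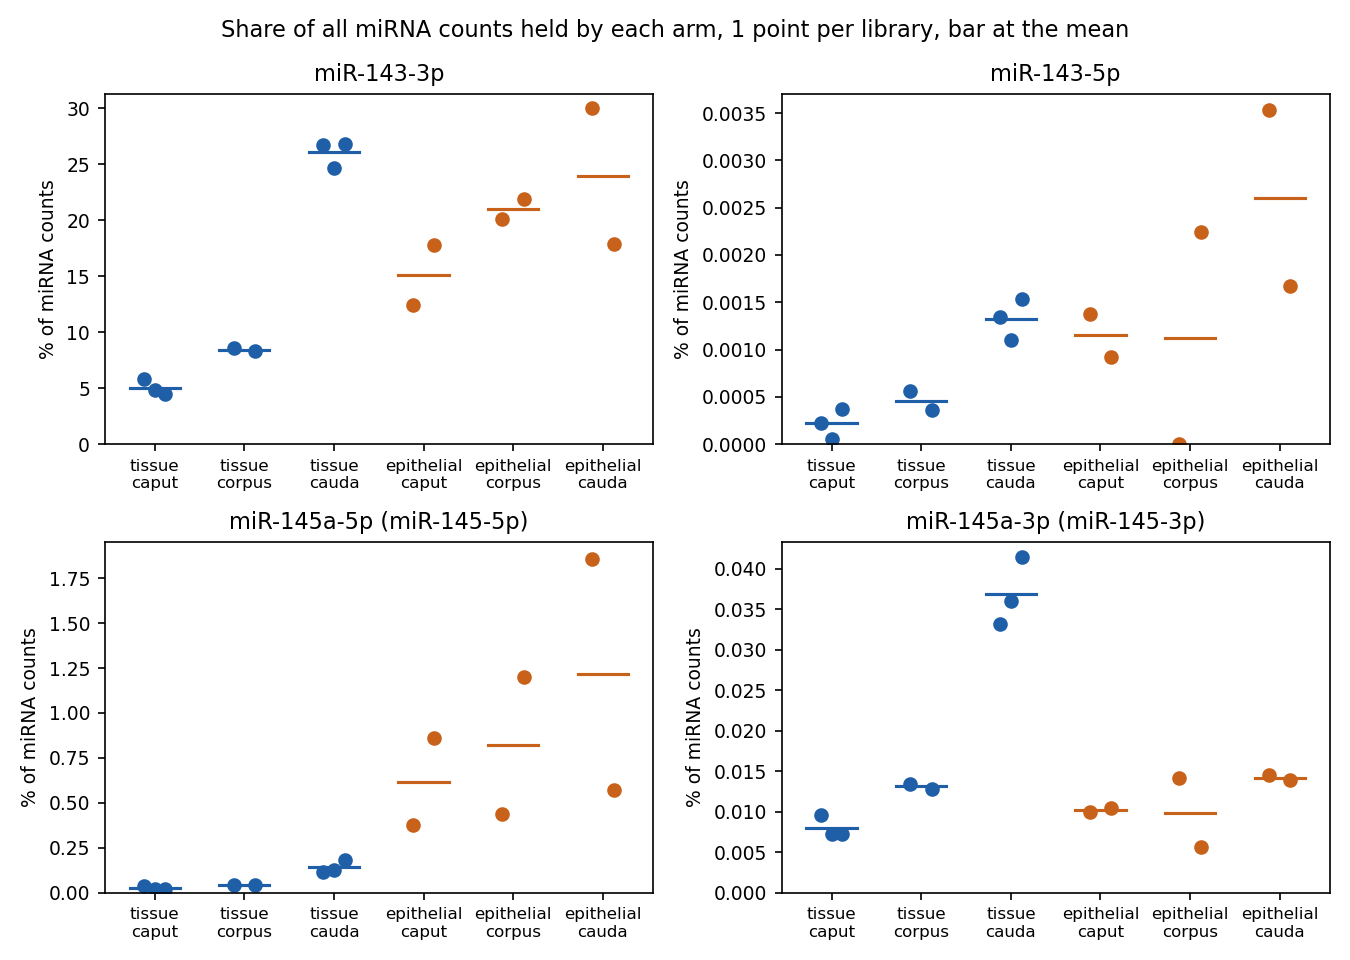
Share of all miRNA counts (%, linear axes from 0, a different range in each panel) held by each arm of miR-143 and miR-145 in whole tissue (blue) and epithelial cells (orange), by region. Points are libraries and bars are means. Within whole tissue all 4 arms are highest in the cauda, and the 5p arm of miR-145 lies higher in every epithelial library than in any whole tissue library.

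The passenger strand, miR-143-5p, was close to the lower limit of detection. Whole tissue caput gave 4, 1 and 8 counts, corpus 7 and 5, and cauda 24, 16 and 24, so the cauda libraries lay above all others. Epithelial caput gave 5 and 3 counts, corpus 0 and 2, and cauda 10 and 3. The single 0 came from a library of 127111 counts, which allows a share of up to 0.00236%, for counting error only.

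The 5p arm of miR-145, its guide strand, was far less abundant than miR-143-3p. The counts of miR-145a-5p were 618, 372 and 434 in whole tissue caput, 517 and 598 in corpus and 2029, 1815 and 2865 in cauda, with ranks between 40 and 113. The cauda libraries stood apart from the rest, while one caput library lay above both corpus libraries in raw counts. Those of miR-145-5p were 1359 and 2801 in epithelial caput, 557 and 1071 in corpus and 5267 and 1021 in cauda, with ranks between 13 and 31. Within each epithelial region the pair of libraries differed widely, from 0.570 to 1.86% of counts in the cauda.

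The 3p arm of miR-145 had the same regional order in whole tissue. The counts of miR-145a-3p were 166, 126 and 156 for caput, 167 and 178 for corpus and 590, 525 and 648 for cauda. Those of miR-145-3p were only 36 and 34 in epithelial caput, 18 and 5 in corpus and 41 and 25 in cauda. Unlike the 5p arm, it took no larger share of counts in epithelial cells than in the cauda of whole tissue, with 0.00562 to 0.0145% against 0.0332 to 0.0415%. Within the caput its share was slightly larger in epithelial cells, 0.00992 and 0.0105% against 0.00731 to 0.00954%. Within the corpus the epithelial libraries (0.0142 and 0.00562%) lay on either side of tissue (0.0134 and 0.0128%).

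Taken as a sum, the 4 arms held 4.54 to 5.90% of counts in whole tissue caput, 8.36 to 8.65% in corpus and 24.9 to 27.0% in cauda. In epithelial cells the sum was 12.8 and 18.7%, 20.6 and 23.1%, and 31.9 and 18.5%. miR-143-3p made up 99.2 to 99.4% of the sum in whole tissue and 94.1 to 97.8% in epithelial cells.

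The first comparison asks how the pair changed along the duct. It was tested by limma-voom on all miRNAs of a preparation, Benjamini-Hochberg adjusted over the miRNAs tested, and a call requires a false discovery rate (FDR) under 0.05 together with a fold change no smaller than 2-fold. In whole tissue all 4 arms rose from caput to cauda. miR-143-3p was 4.07-fold higher in the cauda (log2 fold change 2.03, SE 0.09, adjusted p = 5.8e-08), miR-145a-5p 4.33-fold (2.11, SE 0.22, adjusted p = 1.1e-05), miR-145a-3p 3.60-fold (1.85, SE 0.13, adjusted p = 8.7e-07) and miR-143-5p 4.91-fold (2.30, SE 0.50, adjusted p = 0.0017). The last of these, miR-143-5p, had a mean count above 10 only in the cauda and was tested for that reason. Its direction was thus largely set by the filter. The background was high, since 189 of 355 miRNAs tested were called (53.2%) and 99 of them were higher in the cauda (27.9%). Library totals without miR-143-3p turned this split from 99 higher and 90 lower to 150 and 51. By size of the rise the arms ranked between number 46 and number 59 of 355.

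Most of this rise lay between corpus and cauda. There miR-143-3p was 3.05-fold higher (log2 fold change 1.61, SE 0.10, adjusted p = 2.3e-06), miR-145a-5p 3.22-fold (1.69, SE 0.24, adjusted p = 0.00027) and miR-145a-3p 2.77-fold (1.47, SE 0.15, adjusted p = 3.7e-05). miR-143-5p was also called at 2.77-fold (1.47, SE 0.50, adjusted p = 0.031), a call from few counts that was lost with the replicate number as a block (1.2, adjusted p = 0.054), in DESeq2 (1.56, adjusted p = 0.16) and without corpus replicate 1, corpus replicate 2 or cauda replicate 3 (adjusted p = 0.085, 0.18 and 0.059). Here too miR-143-5p was tested only through its count in the cauda. In the background 93 of 341 miRNAs were called (27.3%), 49 of them higher in the cauda (14.4%), and library totals without miR-143-3p gave 90 higher and 25 lower.

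Between caput and corpus no arm was called, against 100 of 334 miRNAs (29.9%). miR-143-3p was 1.33-fold higher in the corpus (log2 fold change 0.42, SE 0.10), under the 2-fold limit although its adjusted p was 0.0051. The values for miR-145a-5p were 0.43 (SE 0.26, adjusted p = 0.18) and for miR-145a-3p 0.38 (SE 0.16, adjusted p = 0.069), and miR-143-5p had too few counts to be tested.

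In epithelial cells none of the 3 arms tested was called between any 2 regions. From caput to cauda the log2 fold change of miR-143-3p was 0.45 (SE 0.32, adjusted p = 0.29, 95% interval -0.28 to 1.18), that of miR-145-5p 0.66 (SE 0.66, adjusted p = 0.43, interval -0.87 to 2.19) and that of miR-145-3p 0.30 (SE 0.37, adjusted p = 0.53, interval -0.55 to 1.15). The intervals of miR-143-3p and miR-145-3p end below the rise that each had in whole tissue, and that of miR-145-5p does not. From caput to corpus the values were 0.33, 0.17 and -0.23 for the same arms, and from corpus to cauda 0.12, 0.49 and 0.53, with adjusted p between 0.46 and 0.89. In the background 25 of 205 miRNAs were called from caput to corpus (12.2%), 21 of 192 from corpus to cauda (10.9%) and 56 of 216 from caput to cauda (25.9%). Single libraries moved these numbers, to 10, 8 and 26 in the same order without epithelial caput replicate 2, to 13 and 4 for the first and second without corpus replicate 1, to 8 for the second without corpus replicate 2 and to 16 for the first without caput replicate 1.

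Cauda replicate 1 of the epithelial cells decided the sign of several of these values. Without it miR-143-3p changed by -0.016 and miR-145-5p by -0.28 from caput to cauda. Without cauda replicate 2 the values were 0.97, under the 2-fold limit, and 1.66. Each of these fits leaves 1 epithelial cauda library and takes the spread from the other groups, so only the size is given.

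**Figure D2:**
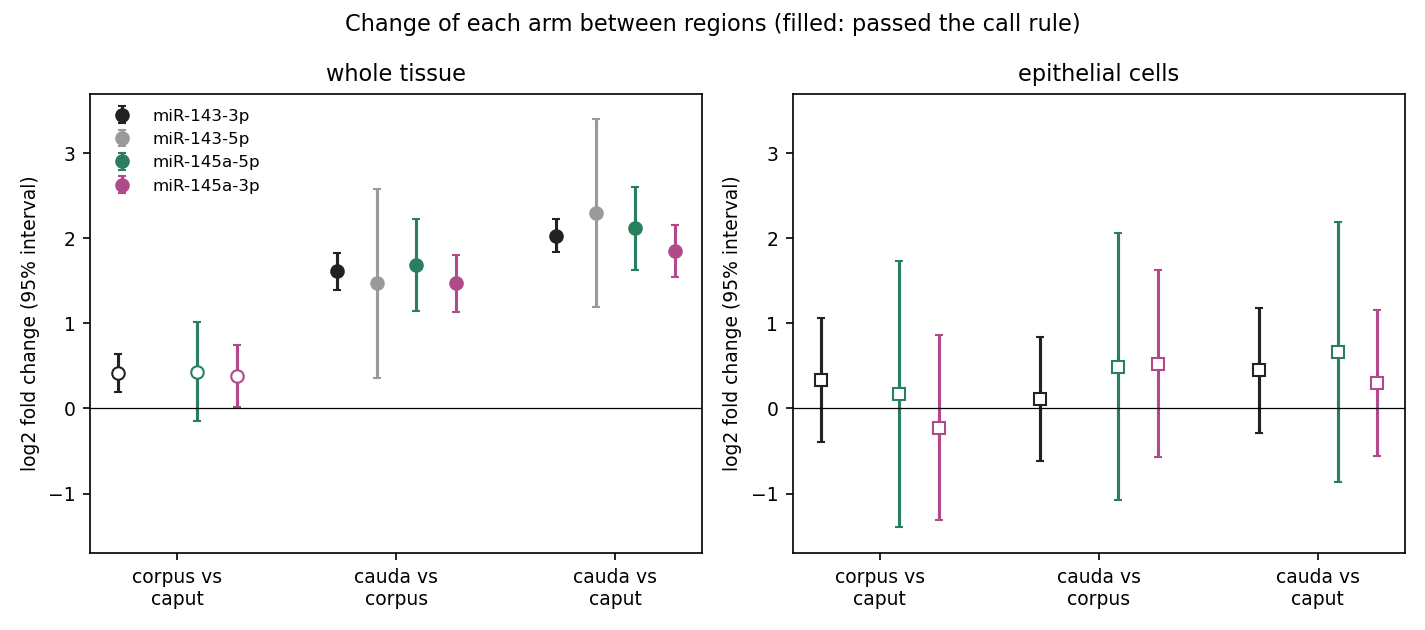
Log2 fold change of each arm between regions (limma-voom, error bars are 95% intervals) in whole tissue (circles, left) and epithelial cells (squares, right), with filled symbols for changes that passed the call rule. In whole tissue the arms tested sit together at 1.85 to 2.30 for cauda against caput, and in epithelial cells every interval spans 0.

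The second comparison tests whether the change along the duct differed between the preparations, in one fit of all 14 libraries over 212 miRNAs matched by name. For this test the call is an FDR below 0.05 with no fold limit. The rise of miR-143-3p was smaller in epithelial cells from corpus to cauda (difference of log2 fold changes -1.68, SE 0.33, adjusted p = 0.0075) and from caput to cauda (-1.61, SE 0.31, adjusted p = 0.0030). The 3p arm of miR-145 differed from caput to cauda (-1.58, SE 0.39, adjusted p = 0.012) and not from corpus to cauda (-1.11, SE 0.47, adjusted p = 0.15). In the background 60 of 212 miRNAs differed from caput to cauda (28.3%) and 18 were lower (8.49%), a split that turned to 14 higher and 24 lower with library totals without miR-143-3p and to 8 higher and 27 lower with at least 10 counts in every library. From corpus to cauda 11 differed (5.19%) and 4 were lower (1.89%). The lower ones were 8 of 21 with a replicate block, 10 of 22 in edgeR and 17 of 32 in DESeq2, and 4 of 22 with library totals.

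For the 5p arm of miR-145 the difference was similar in size, -1.44 from caput to cauda (SE 0.73, adjusted p = 0.17), and did not pass the test. Its size rested on epithelial cauda replicate 1, without which it was -2.46, and from corpus to cauda it moved from -1.35 (adjusted p = 0.31) to -2.37. Only the size is given for these fits, since they leave 1 epithelial cauda library and take the spread from the other groups. From caput to corpus no arm differed, with values of 0.07, -0.10 and -0.48 for miR-143-3p and the 5p and 3p arms of miR-145, where 17 of 212 miRNAs differed (8.02%). Without epithelial caput replicate 1 these counts became 37 from caput to cauda, 23 from corpus to cauda and 4 from caput to corpus. From corpus to cauda 20 differed without epithelial cauda replicate 1 and 23 without whole tissue cauda replicate 3, and from caput to corpus between 5 and 9 without any one of the 4 corpus libraries.

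The third comparison sets the level in isolated cells against that in tissue of the same region. The study's methods describe one procedure of cleaning, alignment and counting for all samples. The 2 preparations nevertheless come from separate tables that name the miR-145 arms differently, so a difference between preparations cannot be told apart from one in how the tables were made. The 5p arm of miR-145 was higher in epithelial cells in all 3 regions, by 17.2-fold for caput (log2 fold change 4.10, SE 0.54, adjusted p = 2.5e-05), 16.1-fold for corpus (4.01, SE 0.62, adjusted p = 0.00015) and 6.32-fold for cauda (2.66, SE 0.49, adjusted p = 0.00036). It was the largest rise of all 212 miRNAs in caput and corpus and number 4 in the cauda. The size depended on which epithelial library was used, and without one of the pair the log2 value lay between 3.44 and 4.82 for caput, 3.39 and 4.66 for corpus, and 1.65 and 3.57 for cauda. Only the size is given, since such a fit leaves 1 epithelial library in the region and takes the spread from the other groups. The lowest value came without replicate 2 in caput and corpus and without replicate 1 in the cauda.

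miR-143-3p was higher in epithelial cells by a smaller factor, 2.25-fold in the caput (log2 fold change 1.17, SE 0.22, adjusted p = 0.00039) and 2.35-fold in the corpus (1.24, SE 0.24, adjusted p = 0.0011). In the cauda it was not called (-0.44, SE 0.22, adjusted p = 0.090). The caput value fell under the 2-fold limit without epithelial caput replicate 2 (0.84), and the cauda value went from -0.94 without epithelial cauda replicate 1, just under the 2-fold limit, to 0.02 without replicate 2.

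The 3p arm of miR-145 went the other way in the cauda, where it was 3.06-fold lower in epithelial cells (log2 fold change -1.62, SE 0.27, adjusted p = 0.00018). In the corpus its value was -0.51 (adjusted p = 0.27), and in the caput it was -0.03 (adjusted p = 0.94), which became 0.37 when library totals set the scale. In the background 75 of 212 miRNAs were called for caput (35.4%), 65 for corpus (30.7%, or 41 without epithelial corpus replicate 2) and 83 for cauda (39.2%). Those higher in epithelial cells were 26 (12.3%), 25 (11.8%) and 35 (16.5%), and those lower in the cauda were 48 (22.6%). The scale matters for these counts, since library totals turned the caput split from 26 higher and 49 lower to 48 higher and 27 lower, and the cauda split from 35 and 48 to 51 and 34.

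On this common scale, in CPM (counts relative to the TMM-adjusted library total, with factors computed over the 14 libraries), the groups could be put in order for each guide strand. miR-143-3p ran from 58401 ± 6873 CPM in whole tissue caput (SD, n = 3) to 87273 ± 2213 in the corpus (n = 2), 133880 ± 40581 in epithelial caput (n = 2), 205498 ± 6984 in epithelial corpus (n = 2), 209444 ± 93208 in epithelial cauda (n = 2) and 271411 ± 12365 in whole tissue cauda (n = 3). Epithelial cauda overlapped all its neighbours in this order, and the other neighbours did not overlap. The 5p arm of miR-145 ran from 297 ± 91.2 CPM in whole tissue caput to 437 ± 9.92 in corpus and 1468 ± 410 in cauda, and then to 5519 ± 3317, 7802 ± 4553 and 10802 ± 8815 in epithelial caput, corpus and cauda. The whole tissue groups of this arm did not overlap each other or the epithelial groups, and the 3 epithelial groups all overlapped.

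Ratios within a library do not depend on the scale, but they too compare rows of separate tables, and the way the tables were made cannot be told apart from the preparation here either. In whole tissue the libraries had 146 to 234 counts of miR-143-3p for each count of miR-145a-5p, with a median of 203. In epithelial cells they had 16.2 to 45.9 counts of miR-143-3p for each of miR-145-5p, with a median of 26.0. The 8 whole tissue libraries all lay above the 6 epithelial ones, and the mean log2 ratio differed by -2.93 in epithelial cells, or 7.64-fold (two-sided exact permutation test within regions, p = 0.0017, the smallest that 600 arrangements allow, 0.0075 adjusted over the 9 ratio tests).

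The ratio between the arms of miR-145 also differed, with the same limit from the tables. Whole tissue had 2.78 to 4.42 counts of miR-145a-5p for each of miR-145a-3p and epithelial cells had 30.9 to 214 of miR-145-5p for each of miR-145-3p, again with no overlap. The log2 ratio differed by 4.36, or 20.6-fold (same test, exact p = 0.0017, adjusted 0.0075), although the highest epithelial ratio rests on 5 counts of the 3p arm. The arms of miR-143 changed less, with 12048 to 82901 counts of miR-143-3p for each of miR-143-5p in 8 whole tissue libraries and 8513 to 19302 in the 5 epithelial libraries that had a count of both. The log2 difference of -1.05 gave an exact p of 0.020 and an adjusted p of 0.060, which fell to 0.017 without whole tissue caput replicate 3 and rose to as much as 0.45 without another library, epithelial caput replicate 1.

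Within each preparation the ratios were tested over all 3 regions at once, by an exact permutation test of the F statistic, and none passed. In whole tissue the mean log2 ratio of miR-143-3p to miR-145a-5p was different by -0.09 in the cauda from the caput (exact p over the 3 regions 0.95), that of the miR-145 arms by 0.26 (exact p = 0.33) and that of the miR-143 arms by -0.57 (exact p = 0.78). In epithelial cells the first and second of these were -0.22 (exact p = 0.80) and 0.38 (exact p = 0.93), in a design whose smallest possible p is 0.067.

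**Figure D3:**
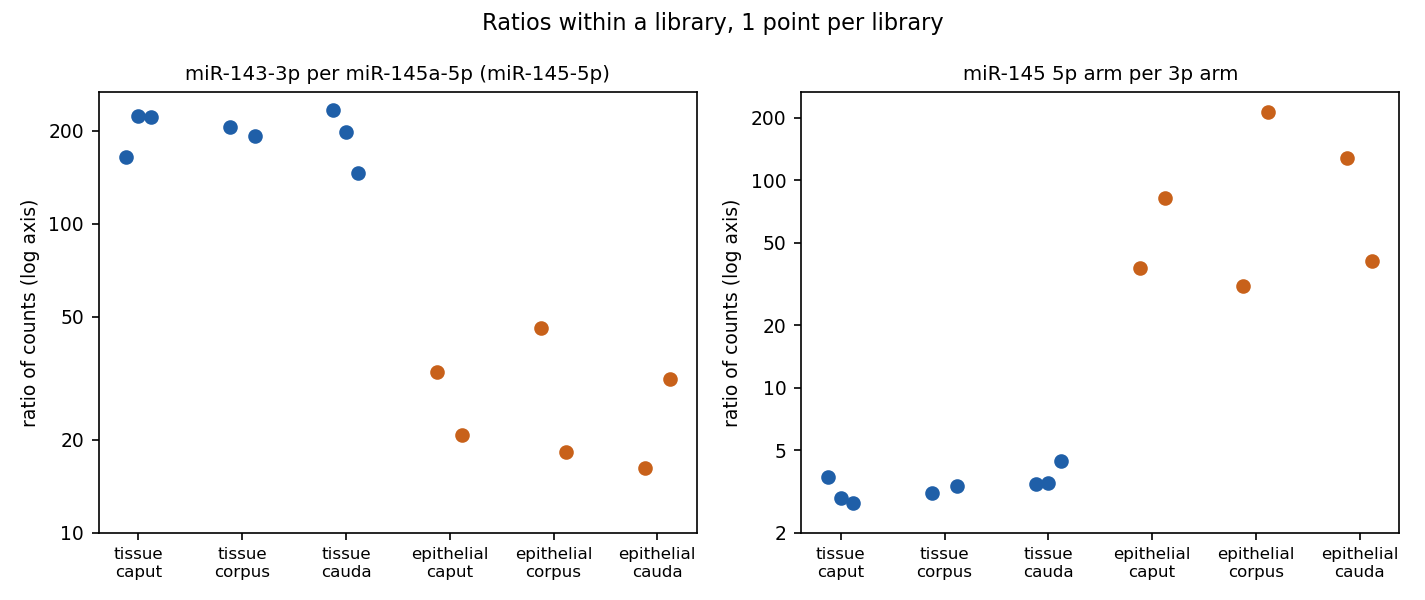
Ratio of counts within each library (log axes, 1 point per library) for miR-143-3p to the 5p arm of miR-145 (left) and for the 5p to the 3p arm of miR-145 (right), in whole tissue (blue) and epithelial cells (orange) by region. On the left all whole tissue points lie at 146 or above and all epithelial points at 45.9 or below, and on the right the order is reversed, with whole tissue at 4.42 or below and epithelial cells at 30.9 or above.

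Marker miRNAs of other cell types also moved with region and preparation, and their part in these results was not tested. In whole tissue the epithelial list, the miR-200 family with miR-203-3p and miR-205-5p, summed to 1.87 to 2.01% of counts for caput, 1.91 to 1.97% for corpus and 0.917 to 1.09% for cauda. From caput to cauda 5 of its 7 members were called lower, where 90 of all 355 miRNAs were (25.4%), miR-141-3p (log2 fold change -1.02), miR-200a-3p (-1.25), miR-200b-3p (-1.14), miR-200c-3p (-1.17) and miR-429-3p (-2.43), with a list median of -1.14 against -0.05 over all 355 miRNAs. The other members, miR-203-3p (-0.87) and miR-205-5p (-0.86), missed the 2-fold limit. With library totals in place of TMM all 7 values stayed below 0, from -0.51 to -2.08, and only miR-429-3p was called, where 65 of the 355 miRNAs were called lower (18.3%). The opposite direction was seen for the lists of striated muscle and red blood cells.

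The striated muscle list rose from 0.00286 to 0.00299% of counts in whole tissue caput to 0.0160 to 0.117% in the cauda, with 6 of 6 tested members called higher, against 27.9% of all miRNAs. All of these except miR-133a-3p and miR-1a-3p had a mean count above 10 only in the cauda. They were tested through the region where they are high, so the filter largely set their direction. The leading member of the list, miR-133a-3p, a miRNA of heart and skeletal muscle, rose by 3.20 on the log2 scale (SE 0.85), and the list stayed far below the miR-143-3p level of 24.7% or more. The red blood cell list summed to 0.00745 to 0.00874% in the caput and 0.0925 to 0.144% in the cauda, with 4 of 4 called higher, miR-486a-5p (3.89), miR-144-3p (3.13), miR-144-5p (2.35) and miR-451a (2.19). Of these, miR-144-5p was tested only through its count in the cauda. Of the leukocyte list 3 of 5 were called higher, miR-150-5p (1.16), miR-155-5p (2.35) and miR-223-3p (1.49), and miR-155-5p was likewise tested only through the cauda. The most abundant leukocyte marker, miR-142a-5p (0.85), stayed under the 2-fold limit. With library totals all 5 leukocyte markers were called, where 115 of 355 miRNAs were called higher. The sum of the leukocyte list went from 0.0863 to 0.0990% to 0.213 to 0.221%.

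Stromal markers had smaller values than the arms of the pair in whole tissue, a difference that was not itself tested. The fibroblast and stroma list, miR-199 and miR-214, had a median log2 fold change of 0.74 from caput to cauda, with 2 of 6 called higher, close to the 27.9% of all miRNAs, miR-199a-3p and miR-199b-3p (both 1.01), which had the same count in all 8 whole tissue and all 6 epithelial libraries and are one measurement. With library totals 3 of 6 were called, where 115 of 355 miRNAs were called higher. The most abundant stromal marker in whole tissue, miR-199a-5p, had a value of 0.63. The sum of the list was 0.177 to 0.216% of counts in the caput and 0.411 to 0.484% in the cauda. For endothelium miR-126a-3p and miR-126a-5p had values of 0.43 and 0.05 and neither was called. Of 5 miRNAs known from studies of smooth muscle growth or phenotype, only miR-222-3p was called in whole tissue (2.87), 1 of 5 where 27.9% of all miRNAs were called higher, and it also rose in epithelial cells (2.71), where the arms of miR-143 and miR-145 were not called. The other 4, miR-21a-5p, miR-221-3p, miR-24-3p and miR-26a-5p, lay between -0.61 and 0.54 in whole tissue.

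Marker miRNAs also changed along the duct in epithelial cells, where no arm of the pair was called. From caput to cauda the pair miR-199a-3p and miR-199b-3p rose (log2 fold change 1.08), while the other stromal markers tested were not called, miR-199b-5p at 0.91, miR-199a-5p at -0.32 and miR-214-3p at -1.02. Also called higher were 3 of 3 tested red blood cell markers, miR-486-5p (2.72), miR-144-3p (2.18) and miR-451 (1.21), and 2 of 2 tested leukocyte markers, miR-150-5p (1.56) and miR-142-5p (1.05), where 13.9% of the 216 miRNAs tested were called higher. Of these markers, miR-144-3p was tested only through its count in the cauda. The endothelial miR-126-3p and miR-126-5p were lower in the corpus than in the caput (-1.27 and -1.13) and higher in the cauda than in the corpus (1.82 and 1.91). None of the 7 epithelial markers, nor the single striated muscle marker tested, was called from caput to cauda. Library totals called 2 of the epithelial markers, where 58 of 216 miRNAs were called, 39 higher and 19 lower. Over all lists and comparisons, 18 of 84 counts of called markers moved by more than 1.5 times with library totals.

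Between preparations the epithelial list took 1.29 times the share in epithelial caput that it took in tissue, 2.13 times in the corpus and 4.04 times in the cauda. Within it miR-205-5p, a miRNA of basal and stratified epithelium, had log2 fold changes of 2.15, 3.31 and 3.94 in the 3 regions, while miR-141-3p and miR-200a-3p were lower in epithelial caput (-1.33 and -1.22). Also called higher were miR-203-3p in the corpus (1.77) and cauda (1.76), and miR-200b-3p (1.90) and miR-429-3p (1.12) in the cauda. The fibroblast and stroma list took 1.49, 1.08 (0.967 without epithelial corpus replicate 2) and 1.38 times its share in tissue, although miR-199a-5p (log2 fold changes -1.32, -1.92 and -2.30) and miR-199b-5p (-1.83, -2.51 and -1.79) were lower in epithelial cells in every region, and miR-214-3p was higher in the caput (1.30). The identical pair miR-199a-3p and miR-199b-3p lay above 0 in all 3 regions (0.94, 0.87 and 0.98), under the 2-fold limit with adjusted p of 0.0024 or less in limma. The endothelial list took 2.02, 0.908 and 2.93 times its share, with miR-126a-3p called in caput (1.18) and cauda (1.26) and miR-126a-5p in cauda (1.27). No member of the stroma or endothelium list was at 0 in any library. The red blood cell list took 4.85, 1.21 (0.718 without epithelial corpus replicate 2) and 1.87 times its share, with miR-451a called higher in caput (2.28) and cauda (1.28) and miR-486a-5p in caput (1.79).

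The leukocyte list had 0.663, 0.439 and 0.719 times the share, and its tested members went opposite ways. miR-142a-5p was lower in epithelial cells in all 3 regions (-1.37, -1.42 and -1.23) and miR-150-5p was higher in caput (1.30) and cauda (1.65). The striated muscle list had 11.7, 4.67 and 0.639 times the share, which became 9.10 in the corpus without whole tissue corpus replicate 2 and 1.11 in the cauda without whole tissue cauda replicate 3, with up to 4 of its members at 0 in a library and miR-133a-3p called higher in caput (3.65) and corpus (2.96). The list of miRNAs known from studies of smooth muscle growth or phenotype had 0.857, 0.763 and 0.684 times its share. Its miR-221-3p was called higher in corpus (1.64) and cauda (1.43), whereas miR-26a-5p (-0.62, -0.58 and -0.97) and miR-21a-5p (-0.64, -0.30 and -0.54) were below 0 in all 3 regions, under the 2-fold limit with adjusted p of 0.038 or less in limma.

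In epithelial cauda the replicate with more miR-143-3p, replicate 1, also had more of the fibroblast and stroma list (0.667 against 0.548%) and of the red blood cell list (0.281 against 0.186%), and less of the epithelial list (3.21 against 4.84%). The endothelial list was nearly equal in both (5.37 and 5.45%). These are 2 libraries, and the part of the lists in the difference between them was not tested.

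**Figure D4:**
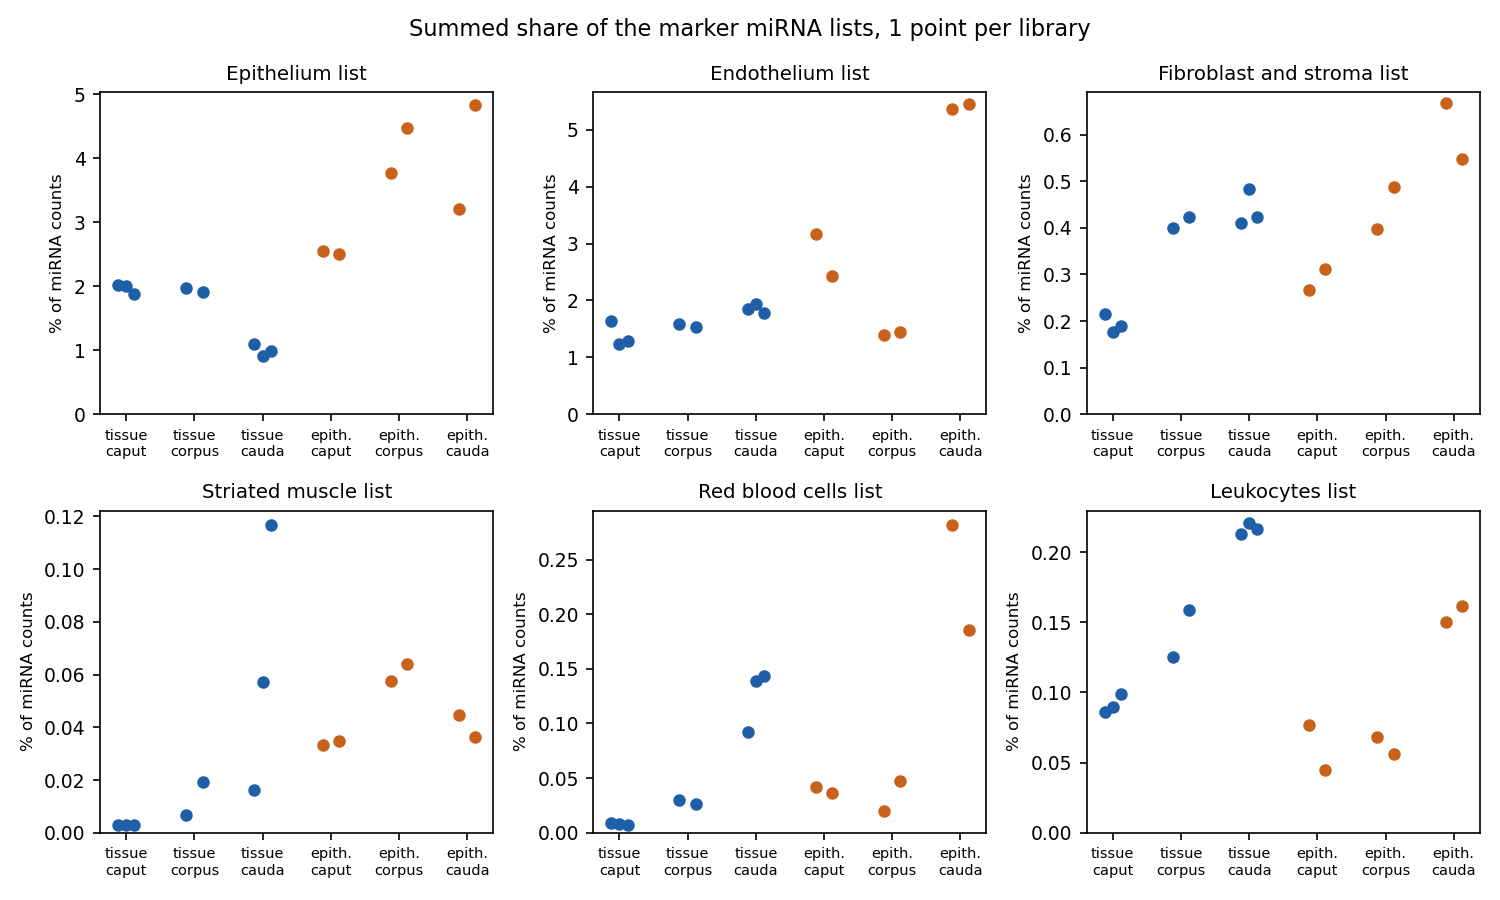
Summed share of all miRNA counts (%, linear axes from 0, a different range in each panel) of 6 lists of marker miRNAs, 1 point per library, in whole tissue (blue) and epithelial cells (orange, marked epith.) by region. The epithelial list is lowest in whole tissue cauda, at 0.917 to 1.09%, and the stroma and endothelium lists are present in all epithelial libraries.

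Finally, the miRNAs whose pattern over libraries was most like that of the guide strands were listed by Pearson's r of log2 CPM, with the arms of the pair left out of the lists and given apart. The lists are a description, since libraries of one region share their tissue and a difference between regions is enough to give a high r. Over the 8 whole tissue libraries the closest to miR-143-3p were miR-486a-3p (r = 0.998), miR-409-3p (0.993), miR-127-3p (0.982), miR-410-3p (0.981) and miR-193a-3p (0.981), of 356 compared. The closest to miR-145a-5p were miR-365-3p (0.991), miR-486a-3p (0.980), miR-409-3p (0.980), miR-23a-3p (0.978) and miR-541-5p (0.971). The arms themselves followed each other, with r = 0.995 between miR-143-3p and miR-145a-3p, 0.977 between miR-143-3p and miR-145a-5p and 0.990 between the arms of miR-145. The rarer miR-143-5p followed less closely, with r = 0.851 to miR-143-3p and 0.841 to miR-145a-5p.

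Mature sequences from RefSeq (GRCm38.p6) were matched for 14 of the 17 miRNAs named in these lists, and those for whole tissue are shown to let their seeds be compared, bases 2 to 8 in capitals.
miR-409-3p: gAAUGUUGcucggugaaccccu
miR-127-3p: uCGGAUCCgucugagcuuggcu
miR-410-3p: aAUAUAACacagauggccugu
miR-541-5p: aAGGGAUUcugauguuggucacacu
miR-193a-3p: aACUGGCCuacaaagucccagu
miR-365-3p: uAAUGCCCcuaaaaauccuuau
miR-23a-3p: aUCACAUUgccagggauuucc
The 7 sequences have 7 different seeds. miR-127-3p (chr12:109592888-109592909), miR-541-5p (chr12:109742422-109742446), miR-409-3p (chr12:109743204-109743225) and miR-410-3p (chr12:109743764-109743784) all lie on the plus strand of chromosome 12, in the imprinted Dlk1-Dio3 region. miR-193a-3p (chr11:79712009-79712030) lies 14436 bases before one of the copies of miR-365-3p (chr11:79726467-79726488) on the plus strand of chromosome 11.

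Over the 6 epithelial libraries, with the arms of the pair again left out, the closest to miR-143-3p was miR-130a-3p (r = 0.893), then miR-125b-5p (0.814), the identical pair miR-199a-3p and miR-199b-3p (0.756 each) and miR-30c-5p (0.752), of 213 compared. The closest to miR-145-5p other than the arms were miR-30c-5p (0.925), miR-23b-3p (0.787), miR-152-5p (0.742), miR-140-5p (0.734) and miR-326-3p (0.688). miR-143-3p and miR-145-5p had r = 0.832, which ranks number 2 for each when the arms are counted. The arms of miR-145, which had r = 0.990 in whole tissue, had r = -0.13 in epithelial cells, where the 3p arm had 5 to 41 counts.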

How the data were processed

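The members and marker lists were chosen with earlier results of these data known. The authors sequenced small RNA, trimmed the reads, removed PhiX, adaptor, mitochondrial and ribosomal matches and aligned the rest to mm10 and miRBase, and the submitters' processing notes name CASAVA 1.8.2, Bowtie 1.1.1 and limma. How reads matching several miRNAs were counted is not given in the sources used here. As deposited, the values are expected counts, 1 row per mature miRNA and without scaling, with 0.001 added to every epithelial value, which was removed here. All 14 columns were used. Names were matched as written or with the letter a added (609), and values were rounded to whole numbers.

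In R 4.3.3, TMM factors came from edgeR 4.0.16 and the limma-voom fit from limma 3.58.1, over miRNAs with a mean count above 10 in either region compared, or in both preparations for the fit of all 14 libraries. Adjusted p-values are from limma with Benjamini-Hochberg adjustment. Correlations used a prior count of 0.5. Exact tests enumerated all arrangements in Python 3.11.15 with numpy 2.4.6, and Wilson intervals used scipy 1.17.1. Errors are SD between libraries or SE of the fit, and intervals and limits from counts cover counting error only. No pair of replicates was identical.

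The reported fits had no block and take no account of pairing. Same-numbered caput and cauda libraries of whole tissue deviated together (r = 0.22, 0.12 and 0.12), so a block by the numbers in the titles was tried as an alternative. Caput and corpus did not deviate together (r = -0.01 in both pairs). For corpus and cauda r was 0.23 and 0.15, but corpus 2 was as close to cauda 3 (0.17). Alternatives were edgeR's quasi-likelihood test, DESeq2 1.42.0, other scales and filters, a replicate block and each library left out. With 4-fold changes in 200 simulated miRNAs, 93 of 94 tested (98.9%) were recovered for whole tissue caput to cauda and 83 of 90 (92.2%) for epithelial cells.

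All arms of the pair were named, with the leading member of each list, the called members where a comparison described had 5 or fewer, and, for each guide strand and preparation, the 5 miRNAs of highest correlation other than the arms of the pair.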

Additional observations from a re-analysis of the deposited data

Results flagged for a closer look

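The change along the duct differed between whole tissue and epithelial cells, by a test of the difference itself, for miR-143-3p from corpus to cauda (difference of log2 fold changes -1.68, adjusted p = 0.0075 in limma) and from caput to cauda (-1.61, adjusted p = 0.0030). The same was found for miR-145a-3p from caput to cauda (-1.58, adjusted p = 0.012). No group had the 4 libraries needed to look for a single library far from the rest.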

How the results depend on the processing

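All calls of miR-143-3p and of the 5p arm of miR-145 between regions, between preparations and in the difference of changes kept their direction and their side of the threshold under every other test, scale, filter and block tried, and the scale moved their size (library totals without miR-143-3p gave 2.74 for miR-143-3p and 2.83 for miR-145a-5p from whole tissue caput to cauda, where all miRNAs shifted by a median of 0.71, and library totals shifted them by 0.35). Values that were not called changed sign. The difference of changes of miR-143-3p from caput to corpus was -0.25 with library totals, -0.20 with totals without miR-143-3p, -0.17 with all miRNAs and -0.38 with at least 10 counts in every library. For miR-145a-3p, epithelial minus whole tissue in the caput became 0.085 in DESeq2, 0.37 with library totals, 0.11 with DESeq2 size factors, 0.53 with totals without miR-143-3p, 0.12 with all miRNAs and 0.059 with names matched as written apart from miR-145, and miR-145-3p from epithelial caput to corpus became 0.077 with totals without miR-143-3p. DESeq2 also called miR-145a-3p in the difference of changes from corpus to cauda (-1.32).

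Leaving out each library in turn gave these ranges. A group of 2 libraries keeps 1 in such a fit, and the spread then comes from the other groups only. In epithelial cells miR-143-3p lay between -0.40 and 0.61 from corpus to cauda and between -0.016 and 0.97 from caput to cauda, and miR-145-5p between -0.42 and 0.83 (caput to corpus), -0.49 and 1.45 (corpus to cauda) and -0.28 and 1.66 (caput to cauda). miR-145-3p lay between -1.0 and 0.45 and between -0.12 and 1.30 for the first and second of these. Epithelial minus whole tissue, miR-143-3p lay between 0.84 and 1.54 in the caput and between -0.94 and 0.021 in the cauda, and miR-145a-3p between -0.14 and 0.12 in the caput and between -1.26 and 0.17 in the corpus. The differences of changes lay between -0.25 and 0.41 for miR-143-3p from caput to corpus, and for miR-145a-5p between -0.76 and 0.58, -2.37 and -0.43, and -2.46 and -0.53 for the 3 comparisons in the same order. For miR-145a-3p they lay between -1.23 and 0.20 from caput to corpus and between -1.77 and -0.36 from corpus to cauda, called once. The called differences between preparations in the ratios of miR-143-3p to miR-145-5p (-3.16 to -2.71) and of the miR-145 arms (3.9 to 4.83) kept adjusted p at or below 0.019, while that of the miR-143 arms (-1.27 to -0.80) had adjusted p from 0.017 to 0.45. The uncalled changes of ratio from caput to cauda had ranges of -0.24 to 0.10 in whole tissue and -0.70 to 0.26 in epithelial cells for miR-143-3p to miR-145-5p, -1.21 to 0.18 and -1.02 to 0.083 for the miR-143 arms, and -0.45 to 1.2 in epithelial cells for the miR-145 arms. The cause of these changes was not tested.

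With a replicate block, miR-143-5p from corpus to cauda in whole tissue (1.2) was the only paired result of the pair to lose its call, and no other call changed. In epithelial cells same-numbered caput and corpus libraries deviated together (r = 0.20). Those of caput and cauda (-0.14) and of corpus and cauda (-0.09) did not. With the numbers of the cauda exchanged, which was chosen after seeing the data, 40, 32 and 64 miRNAs were called for caput to corpus, corpus to cauda and caput to cauda, against 25, 21 and 56 with no block and 27, 22 and 52 with the numbers as given.

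The numbers of miRNAs called over all features depended on the setting, from 115 to 255 for whole tissue caput to cauda (189 as reported), 28 to 68 for epithelial cells (56), 42 to 244 between preparations in the caput (75), 38 to 278 in the corpus (65), 45 to 267 in the cauda (83), and 35 to 65, 7 to 20 and 12 to 32 for the differences of changes from caput to cauda (60), caput to corpus (17) and corpus to cauda (11, 21 with the block). Library totals moved the share called higher from 52.4 to 63.9% for whole tissue caput to cauda and from 53.6 to 67.2% for epithelial cells. In epithelial cells miR-143-5p had 10 counts or fewer and the 3p arm of miR-145 had 41 or fewer, which limits the precision of their values.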
